A study of Homo sapiens with 12 samples.

Results

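The tubulin family was examined as 10 genes, out of 57167 genes in the DU145 count table and 61860 in the table labelled C4-2. The genes were TUBA1A, TUBA1B, TUBA1C and TUBA4A of the alpha class, TUBB2A, TUBB2B, TUBB3, TUBB4B and TUBB6 of the beta class, and TUBG1 of the gamma class. They were listed by symbol in the DU145 table and matched by Ensembl identifier in the other, and all 10 were found in both. The family was selected on measured values, the palbociclib against DMSO fold change of TUBB4B, which had opposite signs in the 2 lines, so the response of its members to palbociclib is described here and not tested. TUBB, a major beta-tubulin gene of the MHC region, had 5 to 16 counts per library in the table labelled C4-2 and 21082 to 24378 in the DU145 table. It was kept out of the family because that region was taken as lost in the table labelled C4-2. Its low counts there are therefore not read as a low level in the cells.

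The study treated 2 human prostate cancer cell lines with palbociclib, an inhibitor of the cyclin-dependent kinases CDK4 and CDK6, or with its solvent DMSO, and asked which effects on STING signalling depend on RB1. C4-2 is a castration-resistant line derived from LNCaP with intact RB1, and DU145 comes from a brain metastasis and lacks functional RB1. RNA was sequenced from 12 libraries, 3 for each treatment of each line. All cells were kept in RPMI-1640 medium with fetal bovine serum, and neither a dose nor a duration nor any genetic change is stated in the labels. The third C4-2 DMSO library held a count of 0 for every gene and was left out, so C4-2 is a comparison of 3 libraries with 2. The labels do not say whether libraries came from separate cultures, and p-values therefore measure the spread between libraries, which may be technical.

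Alpha- and beta-tubulin bind GTP and pair into the heterodimers from which microtubules are built, and gamma-tubulin sits in a ring complex that starts new microtubules. Human cells carry several alpha and beta genes, called isotypes, whose products differ mainly in the tail and in the tissues where they are used. Dividing cells rebuild their microtubules into a spindle, and tubulin is the target of the taxanes used against prostate cancer. Tubulin messages are also regulated by their own product: when free tubulin is in excess, TTC5 recognises the first residues of a tubulin chain as it leaves the ribosome and, with SCAPER, recruits the CCR4-NOT deadenylase that removes the message.

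The coding starts that specify those first residues are shown because they separate the classes. They were read from GENCODE transcripts on the plus sense of each message, 18 bases from the start codon, with the first 12 bases, the first 4 codons, in capitals.
TUBA1A: ATGCGTGAGTGCatctcc
TUBA1B: ATGCGTGAGTGCatctcc
TUBA1C: ATGCGTGAGTGCatctcc
TUBA4A: ATGCGTGAATGCatctca
TUBB2A: ATGCGCGAGATCgtgcac
TUBB2B: ATGCGTGAGATCgtgcac
TUBB3: ATGAGGGAGATCgtgcac
TUBB4B: ATGAGGGAAATCgtgcac
TUBB6: ATGAGGGAGATCgtgcac
TUBG1: ATGCCGAGGGAAatcatc
TUBA1A, TUBA1B and TUBA1C shared all 18 bases, TUBB3 and TUBB6 shared all 18, and TUBG1 stood apart from both classes. Coding sequences were 97.2% identical between TUBA1A and TUBA1B, 97.3% between TUBA1B and TUBA1C, and 98.1% between TUBB2A and TUBB2B. Of all stretches of 100 bases in the coding sequence, 65.7% of TUBB2A, 39.0% of TUBA1B, 26.7% of TUBA1C and 26.4% of TUBA1A also occurred exactly in another member. The share was 3.6% for TUBB4B and 0.0% for TUBA4A, TUBB6 and TUBG1. Counts of TUBB2A, TUBB2B and the TUBA1 genes are accordingly uncertain, since the counting could split or drop reads that fit several copies.

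The members lie at the following places in hg38, as the DU145 table gives them. The TUBA1 genes cluster on chromosome 12, with TUBA1A at 49184796 to 49189324 and TUBA1B at 49127782 to 49131397 on the minus strand and TUBA1C at 49188736 to 49274603 on the plus strand. TUBA4A lies on chromosome 2 at 219249711 to 219278170. TUBB2A and TUBB2B are neighbours on chromosome 6, at 3153669 to 3157526 and 3224261 to 3231730. TUBB4B lies on chromosome 9 at 137241213 to 137243707, TUBB3 on chromosome 16 at 89921392 to 89938761, TUBB6 on chromosome 18 at 12307669 to 12344320 and TUBG1 on chromosome 17 at 42609676 to 42615234. TUBA1A and TUBA1C overlap by 589 bases on opposite strands, and the table labelled C4-2 was counted without strand, so reads from that stretch cannot be assigned to either gene there. TUBG1 overlaps RETREG3 by 948 bases on the opposite strand, and TUBB6 lies across from AFG3L2 over 15377 bases.

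Depth and cell identity set limits on all values. Total counts ran from 2608851 to 3489659 in the 5 libraries labelled C4-2 and from 16108999 to 16674393 in the 6 DU145 libraries, so that a count of 0 allows up to 0.86 to 1.15 CPM (a gene's count divided by its library total and scaled up) in the first and 0.18 to 0.186 CPM in the second, counting error only. Within DU145 the libraries numbered 3 stood apart by the chi-square per degree of freedom of pairs of the same treatment. It was 5.41 to 8.34 in pairs that held such a library against 2.36 and 2.37 in the others. Pairs of the same treatment labelled C4-2 stood at 1.14 to 1.18, little above counting error alone. The measure grows with depth, so the values of these shallower libraries cannot be compared with those of DU145. The SEs of the set labelled C4-2 may reflect technical spread, which was not tested. The luminal prostate genes KLK3, KLK2, FOLH1 and ACP3 were at 0 in every library labelled C4-2, which goes against that label, and the 8 luminal markers summed to 37.3 to 42.9 CPM with palbociclib and 44.4 to 45.4 CPM with DMSO. In DU145, 3 of the 8 were at 0 in each group and the sums were 16.0 to 18.9 and 28.8 to 35.4 CPM. The sum of epithelial markers moved with treatment. The summed level of 5 epithelial markers was 412 to 447 CPM with palbociclib and 1045 to 1053 CPM with DMSO in the libraries labelled C4-2, and 2068 to 2213 against 3221 to 3563 CPM in DU145. In the libraries labelled C4-2 only KRT8 and KRT18 of these had enough counts to be tested, and KRT7, CDH1 and EPCAM did not. Fibroblast and mesenchymal markers summed to at least 24679 CPM in every library labelled C4-2 and to at most 376 CPM in DU145. In bulk RNA, fewer cells of a type and less RNA per cell cannot be told apart.

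With palbociclib, tubulin messages were lower in the libraries labelled C4-2 and higher in DU145. By edgeR's quasi-likelihood test with Benjamini-Hochberg adjustment at 0.05 over all tested genes, 8 of 10 members were called lower and 0 higher in the first, where 51.8% of 11943 tested genes were called, 26.6% lower and 25.2% higher. In DU145, 8 of the 9 tested members were called higher and 0 lower, where 58.1% of 15361 tested genes were called, 28.8% higher and 29.2% lower. The members' median log2 fold change was -0.80 in the first set and 0.50 in DU145, and the median of all tested genes was 0.00 and -0.01. TUBA1A, TUBA1B, TUBA1C, TUBA4A, TUBB2A, TUBB4B and TUBG1, 7 of the 9 members tested in both, were called lower in the first and higher in the second, as were 8.87% of 11007 genes tested in both. Because the members were chosen with these values known, nothing is read from those counts.

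**Figure D1:**
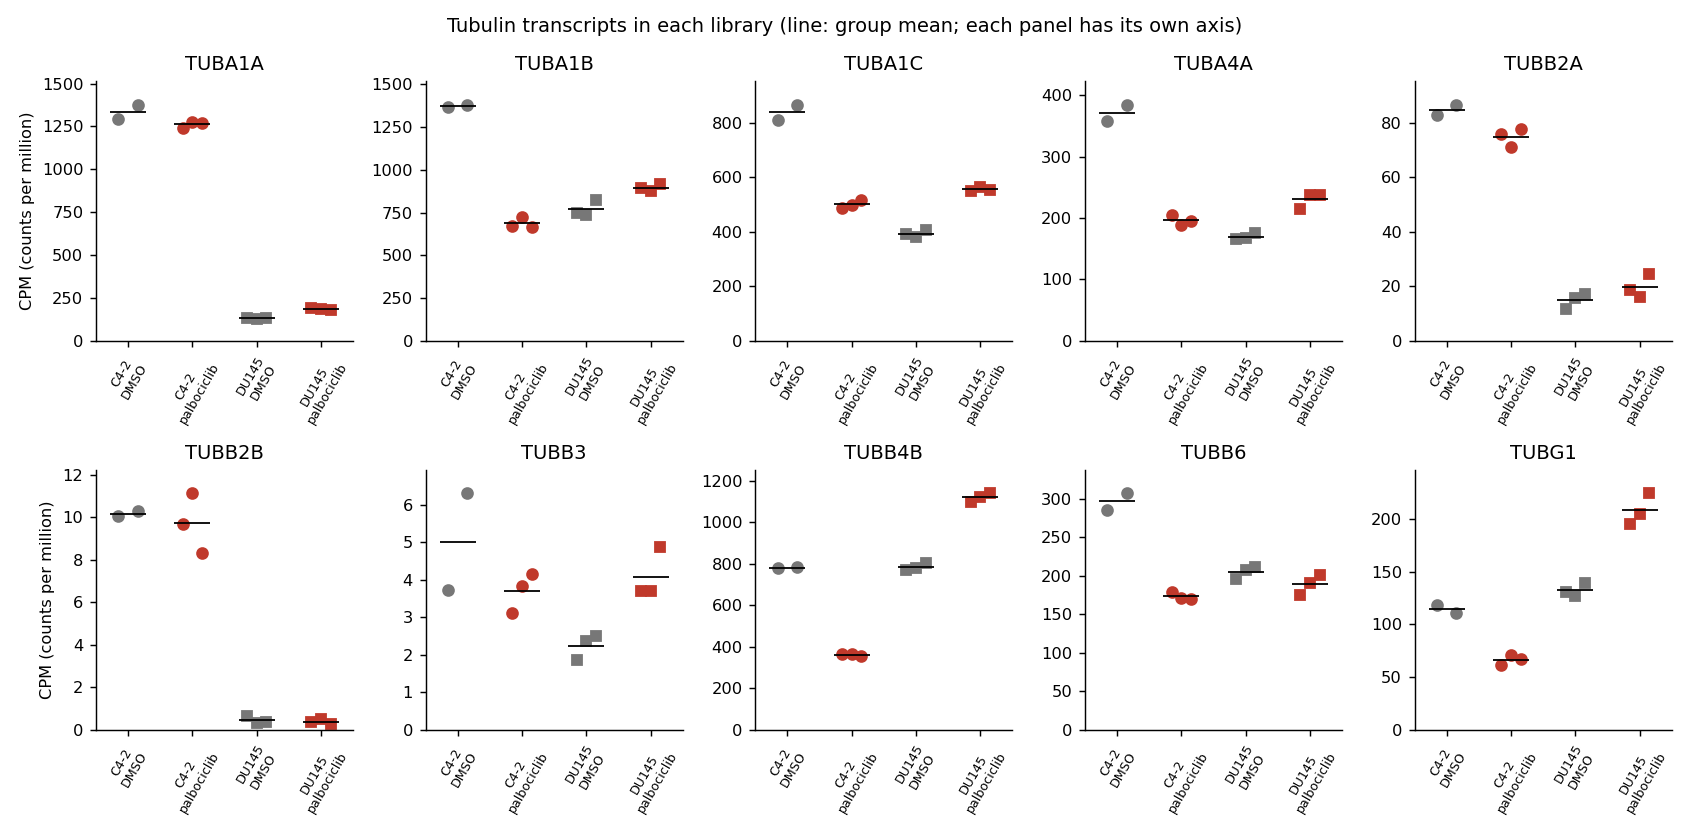
CPM (vertical axis, from 0, with its own scale in each panel) of the 10 tubulin genes in each library, with DMSO in grey, palbociclib in red, circles for libraries labelled C4-2, squares for DU145 and a line at each group mean. In TUBB4B the palbociclib libraries lie below the DMSO libraries in the set labelled C4-2 (354 to 366 against 778 to 783 CPM) and above them in DU145 (1099.8 to 1140.3 against 769 to 806 CPM).

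TUBB4B, the beta isotype used widely in dividing and ciliated cells, had the largest fall and the largest difference between lines of the members. It stood at 365, 366 and 354 CPM in the palbociclib libraries labelled C4-2 and at 778 and 783 CPM in the DMSO libraries. All 3 treated libraries lay close together and far below both controls. TUBB4B fell by 1.16 on the log2 scale (SE 0.0371), 2.23-fold. In DU145 it stood at 1099.8, 1121 and 1140.3 CPM with palbociclib and 769, 779 and 806 CPM with DMSO, again without overlap. There it rose by 0.54 (SE 0.0549), 1.45-fold, and the log2 fold change in DU145 exceeded the one labelled C4-2 by 1.73 (SE 0.0726).

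TUBA1B, the most widely expressed alpha isotype, moved in the same pattern but less evenly between the lines. In the libraries labelled C4-2 it had 672, 724 and 666 CPM with palbociclib and 1364 and 1381 CPM with DMSO. In DU145 it had 891, 878 and 915 CPM with palbociclib and 748, 737 and 823 CPM with DMSO. Neither line showed an overlap, and the DMSO library of DU145 numbered 3 came closest to the treated ones. The log2 fold change was -1.05 (SE 0.0323) in the first and 0.24 (SE 0.0608) in DU145, the smallest rise among the members called there.

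TUBA1C and TUBA4A followed. TUBA1C had 488, 500.2 and 515 CPM with palbociclib against 811 and 867 CPM with DMSO in the libraries labelled C4-2, a log2 fold change of -0.79 (SE 0.0364). In DU145 it had 551, 563 and 553 CPM against 393, 381 and 407 CPM, a change of 0.52 (SE 0.0583). TUBA4A, an alpha isotype best known from platelets, muscle and nerve and encoded without a C-terminal tyrosine, had 205, 189 and 196 CPM against 358 and 385 CPM in the first and 215, 238 and 237 CPM against 166, 167 and 175 CPM in DU145. Its log2 fold changes were -0.96 (SE 0.0501) and 0.47 (SE 0.0663), and the groups of both genes were apart in both lines.

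TUBA1A, the alpha isotype that predominates in developing neurons, differed from its close copies. In the libraries labelled C4-2 it had 1240.3, 1278 and 1267 CPM with palbociclib and 1293 and 1377 CPM with DMSO. All treated libraries were below the controls, but only just, and the log2 fold change was -0.13 (SE 0.0295). In DU145, where it was a minor isotype, it had 188, 185 and 179 CPM with palbociclib and 134, 129 and 133 CPM with DMSO, a rise of 0.50 (SE 0.063). How reads from the stretch that TUBA1A shares with TUBA1C were counted in the first table was not tested.

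The other beta isotypes were less uniform. TUBB6, a broadly expressed and divergent beta isotype, had 179, 171 and 169.9 CPM with palbociclib against 286 and 307 CPM with DMSO in the libraries labelled C4-2, a log2 fold change of -0.82 (SE 0.0532). In DU145 it had 174, 191 and 202 CPM with palbociclib against 196, 207 and 211 CPM with DMSO. Those groups overlapped and the log2 fold change was -0.09 (SE 0.0697), so TUBB6 was the tested member that was not called there. Without both DU145 libraries numbered 3 its value was -0.12 and it was called lower. TUBB2A, a beta isotype abundant in neurons, had 75.8, 70.9 and 77.6 CPM against 82.8 and 86.5 CPM in the first, a log2 fold change of -0.22 (SE 0.084). In DU145 it had 18.7, 16.1 and 24.3 CPM against 11.6, 15.7 and 17.1 CPM, groups that overlapped, with a rise of 0.44 (SE 0.153). Both TUBB2A calls rest on single libraries. In the first set the call was lost without palbociclib replicate 2 (-0.18), DMSO replicate 1 (-0.26) or DMSO replicate 2 (-0.20), and also with library totals (-0.17) and with DESeq2 (-0.24), and in DU145 it was lost without palbociclib replicate 3 (0.26) or DMSO replicate 1 (0.28).

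TUBB3 and TUBB2B had the lowest counts of the members. TUBB3, the isotype used as a neuronal marker and studied in taxane resistance, had 9, 10 and 14 counts with palbociclib and 13 and 19 with DMSO in the libraries labelled C4-2, and the log2 fold change of -0.45 (SE 0.372) was not called and ran from -0.81 without DMSO replicate 1 to -0.06 without DMSO replicate 2. In DU145 it had 61, 61 and 81 counts with palbociclib and 30, 38 and 41 with DMSO, without overlap, and rose by 0.89 (SE 0.219), 1.85-fold, from 2.24 ± 0.334 to 4.08 ± 0.674 CPM (SD, n = 3 each). The difference between lines was 1.38 (SE 0.435) and was not called without C4-2 DMSO replicate 2 (0.99). With a stricter filter on low counts TUBB3 was not tested, so its calls in DU145 and between lines were lost. TUBB2B, a neuronal beta isotype, had 28, 29 and 28 counts against 35 and 31 in the first, with a log2 fold change of -0.13 (SE 0.236) that went to -0.01 without palbociclib replicate 3. It had 6, 8 and 4 counts against 10, 5 and 6 in DU145, which was too few to be tested there.

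TUBG1, the main gamma-tubulin, moved as TUBB4B did. In the libraries labelled C4-2 it had 60.9, 70.9 and 67.2 CPM with palbociclib and 119 and 111 CPM with DMSO, a log2 fold change of -0.84 (SE 0.0821). In DU145 it had 196, 205 and 225 CPM with palbociclib and 130.5, 127 and 139.5 CPM with DMSO, a rise of 0.68 (SE 0.0721). No library of one treatment reached the range of the other in either line. The gene across from it, RETREG3, had 129 to 201 counts per library labelled C4-2 and 561 to 630 per DU145 library, where TUBG1 had 176 to 414 and 2046 to 3745.

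**Figure D2:**
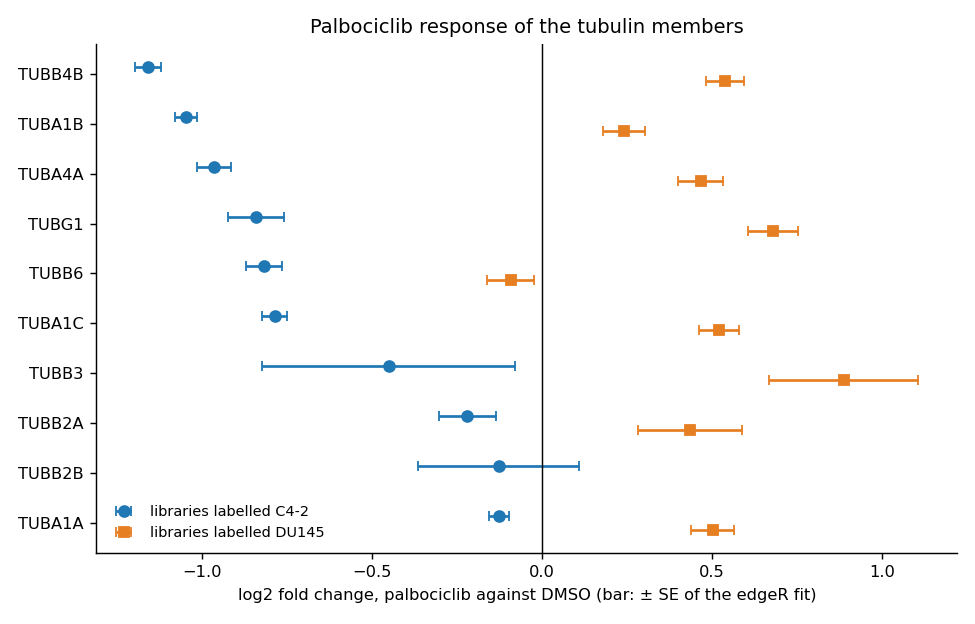
Log2 fold change of palbociclib against DMSO (horizontal axis) with the SE of the edgeR fit as the bar, for each tubulin gene, with circles for libraries labelled C4-2 and squares for DU145. TUBB4B is at -1.16 and 0.54 and TUBA1B at -1.05 and 0.24, TUBB6 is near 0 in DU145 (-0.09), and TUBB2B, not tested in DU145, has a single point.

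Counted over groups, all 3 palbociclib libraries lay below both DMSO libraries for 8 members in the set labelled C4-2, and the groups of TUBB2B and TUBB3 overlapped. Such a separation downwards was seen in 30.3% of tested genes. In DU145 all palbociclib libraries lay above all DMSO libraries for 7 members, against 29.4% of tested genes, and the groups of TUBB2A, TUBB2B and TUBB6 overlapped. The difference in log2 fold change between lines was called higher in DU145 for 9 of 10 members, where 33.4% of 18139 genes were called, 18.4% higher and 15% lower, with a median of 1.33 against -0.02 for all genes. TUBB2B was the member not called, at -0.07 (SE 0.508), and its sign was not stable, from -0.33 without DU145 palbociclib replicate 2 to 0.27 without DU145 DMSO replicate 1. These counts too use the values by which the family was chosen.

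Levels were set against each other per kilobase of gene model. With DMSO in the libraries labelled C4-2, TUBA1A stood at 390.2 ± 17.4, TUBA1B at 384 ± 3.26 and TUBB4B at 369.9 ± 1.65 CPM per kb (SD, n = 2), and the first pair differed by less than the SD of TUBA1A. TUBA1C followed at 181 ± 8.57, TUBA4A at 91.1 ± 4.54 and TUBB6 at 72.0 ± 3.62 CPM per kb. TUBB2A (49.0 ± 1.53) and TUBG1 (47.6 ± 2.31) differed by less than the SD of TUBG1, and TUBB2B (4.63 ± 0.0806) and TUBB3 (1.13 ± 0.411) were far below. With DMSO in DU145, TUBB4B led at 372 ± 9.18, followed by TUBA1B at 215 ± 13.1 and TUBA1C at 85.0 ± 2.77 CPM per kb (SD, n = 3). TUBG1 (54.8 ± 2.74) and TUBB6 (49.7 ± 1.95) came next, above TUBA4A (41.5 ± 1.18) and TUBA1A (38.7 ± 0.886). TUBA1A thus ranked first in one table and seventh in the other, but the tables were counted separately and their levels were not tested against each other.

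Summed over the 10 genes, tubulin messages went from 1591 ± 38.7 (SD, n = 2) with DMSO to 1007 ± 13.03 CPM per kb (SD, n = 3) with palbociclib in the libraries labelled C4-2, 1.58-fold lower. In DU145 the sum went from 866 ± 31.0 to 1156 ± 25.7 CPM per kb (SD, n = 3 each), 1.33-fold higher. The alpha, beta and gamma classes were 1.46-, 1.9- and 1.73-fold lower in the first and 1.26-, 1.37- and 1.58-fold higher in the second. The gamma class here is TUBG1 alone. TUBG2, a gamma-tubulin gene outside the family, was called in neither line, with log2 fold changes of -0.02 and 0.18. The beta sums and the sums over the 10 genes leave out TUBB. In DU145 TUBB stood at 392.3 ± 4.14 CPM per kb with DMSO, above TUBB4B, and at 434.6 ± 5.83 with palbociclib (SD, n = 3 each). Its edgeR fold change of 1.13 was below the rise of both sums, which would thus be smaller with TUBB.

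The mixture of isotypes also moved. In the libraries labelled C4-2, TUBA1A made up 37.3% ± 0.459 of the alpha-class CPM per kb with DMSO (SD, n = 2) and 51.4% ± 0.295 with palbociclib (SD, n = 3), while TUBA1B went from 36.7% ± 0.873 to 26.8% ± 0.864. The fall of the alpha class was thus borne by TUBA1B, TUBA1C and TUBA4A more than by TUBA1A. Among the 5 beta genes TUBB4B went from 74.5% ± 0.760 to 65.4% ± 0.682 and TUBB2A from 9.87% ± 0.163 to 16.5% ± 0.837. In DU145 the mixture changed less: TUBB4B went from 86.3% to 90.1%, TUBB6 from 11.5% to 7.78%, TUBA1B from 56.6% to 52.1% and TUBA1A from 10.2% to 11.2%. Reads that fit several copies bear on the TUBA1 and TUBB2 shares, and their part was not tested.

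**Figure D3:**
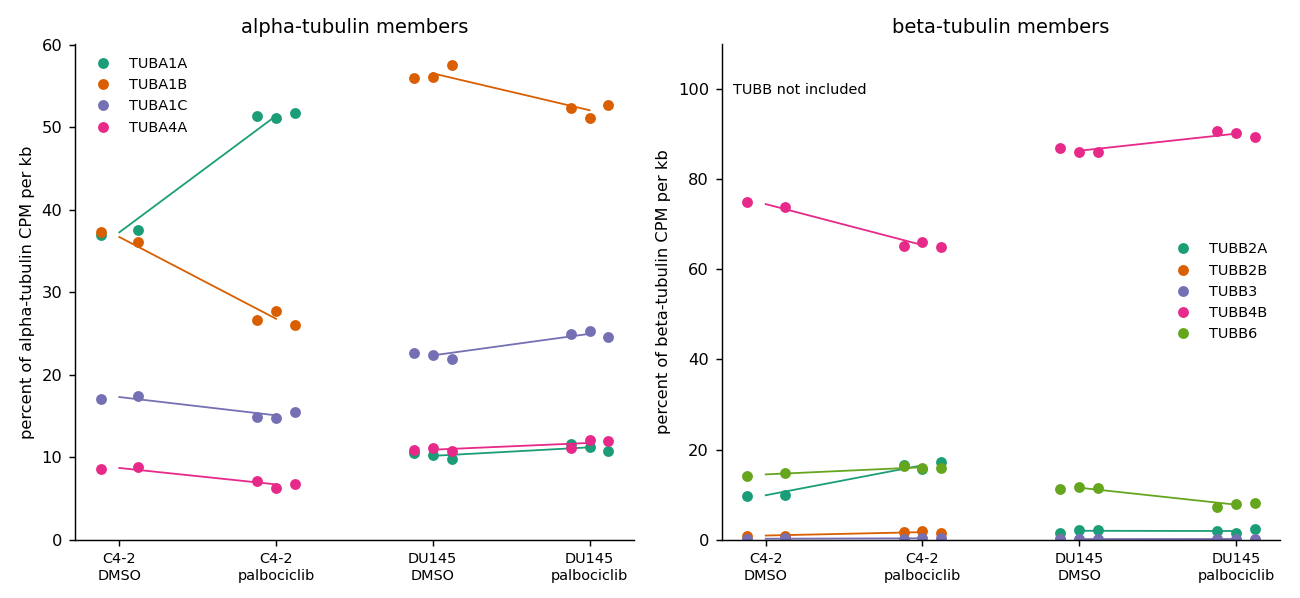
Percent of the alpha-class (left) and beta-class (right, without TUBB) CPM per kb carried by each gene, with a point for each library and lines joining group means within a line. TUBA1A rises from 37.3% to 51.4% of the alpha class in the libraries labelled C4-2 and goes from 10.2% to 11.2% in DU145.

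A search for genes whose level followed TUBB4B covered 6280 non-members tested in both lines with a mean CPM of at least 20 in each. The closest were found by Pearson's r over the 11 libraries, after centring each line on its mean. They were FAM83D (r = 0.9967), FEN1 (0.9946), INCENP (0.9943), TMEM109 (0.9935) and YWHAH (0.9919). The libraries share line, treatment and depth, so r mostly reflects the 4 group means and is given as a description. FAM83D had log2 fold changes of -1.41 and 0.60, FEN1 of -1.53 and 0.79, and INCENP of -1.49 and 0.66 in the libraries labelled C4-2 and DU145. TMEM109 had -0.83 and 0.34, and YWHAH had -0.85 and 0.33. Among the members, r with TUBB4B was 0.9928 for TUBA4A, 0.9819 for TUBA1C, 0.9698 for TUBA1B and 0.9516 for TUBG1, and it was lower for TUBB6 (0.8098) and TUBA1A (0.6368). By Spearman's rho FAM83D ranked 10 and FEN1 ranked 35, while INCENP, TMEM109 and YWHAH were among 9 genes tied for the first place, which also held EIF3D (log2 fold changes -0.30 and 0.08) and PSMB6, ranked 465 by Pearson's r.

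The stretches upstream of TUBB4B and TUBG1, members that moved together and hold matches, are shown with the motifs searched in capitals. They come from RefSeq (GRCh38.p14, plus strand), run 5′ to 3′ and end before the gene start in the deposited annotation, at chr9:137241037-137241212 and chr17:42609433-42609675.
TUBB4B: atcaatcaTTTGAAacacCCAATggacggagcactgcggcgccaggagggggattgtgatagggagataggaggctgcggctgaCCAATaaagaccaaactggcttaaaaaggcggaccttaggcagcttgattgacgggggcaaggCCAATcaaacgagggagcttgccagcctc
TUBG1: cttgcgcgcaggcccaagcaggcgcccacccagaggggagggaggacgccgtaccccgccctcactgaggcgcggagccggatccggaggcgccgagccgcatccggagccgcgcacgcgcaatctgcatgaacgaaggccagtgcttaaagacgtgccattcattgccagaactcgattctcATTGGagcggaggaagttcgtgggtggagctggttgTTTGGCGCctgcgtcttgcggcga
Promoter windows of 250 bases before the RefSeq start, 14 for the 10 members, were searched on both strands for the CCAAT box, bound by NF-Y (letters CCAAT), the cell cycle homology region or CHR, bound by the MuvB core (TTTGAA), and E2F sites (TTTCCCGC, TTTGGCGC or TTTCGCGC). None of the matches shown overlapped another. CCAAT was found in 9 of 14 windows and 7 of 10 members, against 32.0% of 35116 promoters. TUBB4B held 3, at 232, 166 and 103 bases before the start, and a TTTGAA at 242. TUBG1 held a CCAAT on the minus strand, printed as ATTGG, at 67 bases and the E2F letters at 31, the only member with an E2F match, against 2.3% of promoters. TTTGAA was found in 3 windows, of TUBA1C and TUBB4B, against 13.3% of promoters. None of the motifs was found for TUBA1B, TUBA4A and TUBB2A, although TUBA4A was the member most like TUBB4B by r. A match is a description of the letters and not of binding.

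Genes that act on tubulin were taken as 8 lists, chosen with earlier results of these data known and described by counts and medians. Among other tubulin genes, 1 of 4 tested was higher and 0 lower in the libraries labelled C4-2 (median log2 fold change 0.22), and 2 were higher and 2 lower of 6 in DU145 (median 0.08). TUBE1, the epsilon-tubulin of centrioles, rose in the first from 13.6 ± 0.964 CPM (SD, n = 2) to 29.02 ± 0.500 CPM (SD, n = 3), a log2 fold change of 1.05 (SE 0.164, edgeR adjusted p = 7.18e-07). In DU145 it fell from 18.2 ± 2.55 to 8.39 ± 0.828 CPM, by 1.09 (SE 0.128, edgeR adjusted p = 1.14e-06). TUBE1 thus changed in the opposite direction to TUBB4B in each line, and its difference between lines was -2.11. TUBB rose in DU145 by 0.17 (SE 0.0516, edgeR adjusted p = 0.00832), which no longer passed when either of the DMSO replicates 1 and 2 was omitted. TUBB4A fell in DU145 (-1.65, edgeR adjusted p = 0.000561), with 26 to 31 counts per DMSO library and 7 to 12 per palbociclib library. TUBB1 rose there (1.84, edgeR adjusted p = 0.000598), with 5 to 8 counts per DMSO library and 19 to 31 per palbociclib library. Both calls were lost with a stricter filter on low counts.

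The counts of each list are to be read beside the shares over all tested genes, 26.6% lower and 25.2% higher in the libraries labelled C4-2 and 29.2% lower and 28.8% higher in DU145. Of 13 genes of the gamma-tubulin ring complex and its anchors, 6 were lower and 1 higher in the libraries labelled C4-2 (median -0.26), and 6 were lower and 2 higher in DU145 (median -0.20). TUBGCP3, a core subunit of the ring, fell in both, by 1.39 (SE 0.206, edgeR adjusted p = 2.66e-07) and by 1.001 (SE 0.0744, edgeR adjusted p = 4.17e-09). PCNT, which anchors the ring at the centrosome, fell by 0.78 in the first and AKAP9, another anchor, rose by 0.72. TUBGCP2 and TUBGCP5 fell by 0.77 and 0.76 in DU145, and TUBGCP4 rose by 0.35. PCNT was also called lower in DU145 (-0.245), and TUBGCP2 and TUBGCP4 were called lower in the first (-0.51 and -0.46). AKAP9 and TUBGCP5 were each called in a single line. Augmin, which branches microtubules off existing ones, had 4 of 7 genes lower and 0 higher in the first (median -0.38) and 4 of 8 lower and 1 higher in DU145 (median -0.26). Its exception was HAUS2, which rose by 0.99 in DU145 (SE 0.0846, edgeR adjusted p = 2.34e-08), whereas HAUS8 fell in both lines, by 1.36 and 0.69. In the first, HAUS2 was at -0.38, a call lost with DESeq2 and without DMSO replicate 1.

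Tubulin must be folded by prefoldin, the chaperonin and cofactors before it can assemble. Of the cofactor and prefoldin genes, 6 of 11 were lower and 1 higher in the libraries labelled C4-2 (median -0.40), and 6 of 13 were higher and 5 lower in DU145 (median -0.09). TBCB, which acts on alpha-tubulin, fell by 0.78 (SE 0.105, edgeR adjusted p = 3.33e-08) and TBCD by 0.65 in the first, and TBCEL rose by 0.98. TBCB and TBCD were called lower in DU145 as well, at -0.37 and -0.54, and TBCEL was not called there (-0.12). In DU145 the prefoldin subunits PFDN1 (0.80, SE 0.0717, edgeR adjusted p = 4.09e-08) and PFDN2 (0.79) and the cofactors TBCC (0.66) and TBCA (0.48) rose. Of these, PFDN1 was called lower in the first (-0.44), and PFDN2, TBCC and TBCA were not called there. The 4 genes of tubulin message autoregulation had small fold changes. In the first, CNOT11 was at -0.41 (edgeR adjusted p = 1.76e-05), CNOT1 at -0.15 (edgeR adjusted p = 0.000448) and TTC5 at 0.43 (edgeR adjusted p = 0.0328). The TTC5 call was lost with DESeq2 (adjusted p = 0.216), without a filter, with a replicate block and on leaving out palbociclib replicate 2, palbociclib replicate 3 or DMSO replicate 2. None of the 4 was called in DU145, where CNOT1 was at 0.13 (edgeR adjusted p = 0.069) and CNOT11 at -0.13 (edgeR adjusted p = 0.0964), and both passed at least 1 alternative fit.

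STMN1, or stathmin, which binds free tubulin dimers and keeps them from assembling, fell furthest of the called pathway genes in the libraries labelled C4-2. It went from 213 ± 12.6 CPM (SD, n = 2) to 46.1 ± 2.40 CPM (SD, n = 3), a log2 fold change of -2.25 (SE 0.0765, edgeR adjusted p = 6.59e-27). In DU145 it went from 294 ± 16.1 to 248 ± 15.7 CPM (SD, n = 3 each), a log2 fold change of -0.22 (SE 0.0653, edgeR adjusted p = 0.00813) that was lost without DMSO replicate 2. STMN1 therefore did not rise with tubulin in DU145. Of the sequestering and severing genes, 4 of 8 were lower and 0 higher in the first (median -0.32), and 3 lower and 1 higher in DU145 (median -0.14). STMN3, a neuronal stathmin, fell by 2.42 in DU145 from 31 to 48 counts per DMSO library to 5 to 9 with palbociclib.

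Enzymes that add or remove tyrosine, glutamate, glycine or acetyl groups on tubulin were called at shares near those over all genes, with 5 lower and 4 higher of 14 tested in the libraries labelled C4-2 (median -0.06) and 7 lower and 2 higher of 19 in DU145 (median -0.34), where the higher share was below that over all genes. In the first the tubulin ligase-like genes TTLL3 and TTLL7 rose by 0.86 and 0.70 and TTLL4 and TTLL12 fell by 0.63 and 0.59. In DU145 the deglutamylases AGBL5 and AGTPBP1 fell by 0.82 and 0.80 and TTL, the tyrosine ligase, by 0.56, while SIRT2, a tubulin deacetylase, rose by 0.48. AGBL5 and TTL were called lower in the first as well (-0.50 and -0.23), and AGTPBP1 and SIRT2 were not called there. Lattice and end-binding proteins had 8 lower and 4 higher of 20 in the first (median -0.20), and 9 lower and 8 higher of 21 in DU145 (median -0.03). MAPRE1, the plus-end protein EB1, moved as TUBB4B did, by -0.64 (SE 0.0532, edgeR adjusted p = 9.62e-14) and 0.45 (SE 0.0601, edgeR adjusted p = 5.07e-06), and CKAP5, a microtubule polymerase, by -0.84 and 0.29. MAP2, a neuronal lattice protein, moved the other way: it rose in the first from 13.96 ± 0.518 to 57.1 ± 3.45 CPM, by 1.98 (SE 0.14, edgeR adjusted p = 6.88e-16), and was at -1.71 in DU145 on 4 to 29 counts per library. MAP1B, another neuronal lattice protein, fell by 1.94 in DU145 (SE 0.113, edgeR adjusted p = 2.06e-10).

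**Figure D4:**
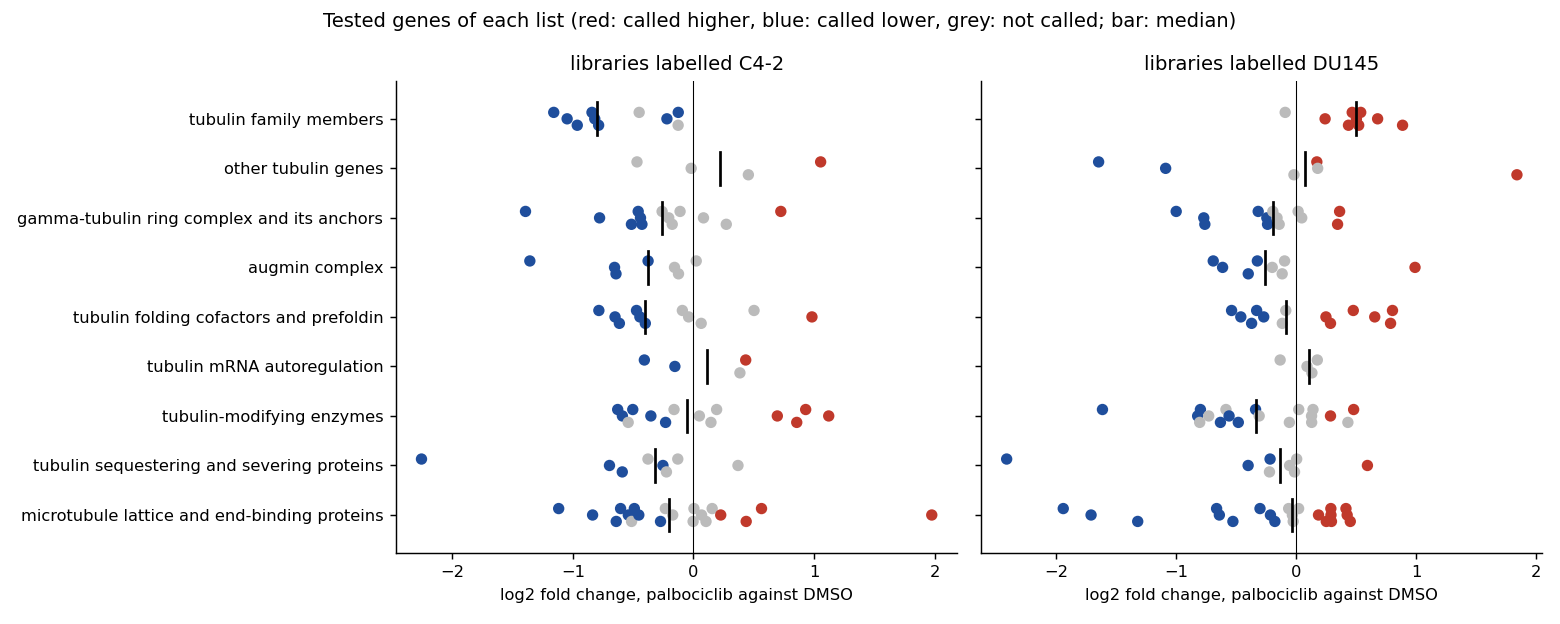
Log2 fold change of palbociclib against DMSO (horizontal axis) of each tested gene of the tubulin family and of the 8 lists, in libraries labelled C4-2 (left) and DU145 (right), red where called higher, blue where called lower and grey where not called, with a bar at the median. The family's median lies at -0.80 on the left and 0.50 on the right, and the medians of the lists lie between -0.40 and 0.22 on the left and between -0.34 and 0.11 on the right.

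Several isotypes are used in neurons and TUBB4B also in ciliated cells, so the markers of those cells were set beside them. The 9 neuronal and neuroendocrine markers summed to 156 to 186 CPM with palbociclib and 199.95 to 239.9 CPM with DMSO in the libraries labelled C4-2, and to 110.3 to 118 and 101 to 114 CPM in DU145, with 4 of 9 at 0 in each group (CHGA, ELAVL4, NEFH and INA in the first, ELAVL4, NEFL, NEFM and DCX in DU145). The 6 multiciliated cell markers summed to 13.4 to 20.1 against 8.31 to 10.3 CPM in the first, and to 7.85 to 8.19 against 5.98 to 8.42 CPM in DU145, and FOXJ1, their defining factor, had 0 to 1 counts per library. The 6 fibroblast and mesenchymal markers summed to 24679 to 24965 against 27082 to 27140.2 CPM in the first and to 319 to 334 against 364 to 376 CPM in DU145. The 5 leukocyte markers stayed at or below 1.99 CPM in the first and 4.25 CPM in DU145. The part of these cell markers in the tubulin values was not tested.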

How the data were processed

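Per the labels, total RNA was made into directional Illumina libraries. The authors deposited their raw counts as 2 tables, 1 per line. Per the file headers, the one labelled C4-2 was made with featureCounts 2.0.1 on Ensembl 107 without strand, and the counter of the DU145 table is not given in the sources used here. Per the submitters' processing notes the build was hg38.

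Counts were tested in R 4.3.3 with edgeR 4.0.16 (filterByExpr, TMM, quasi-likelihood F test, Benjamini-Hochberg at 0.05), each line alone and then jointly with line, treatment and their interaction. DESeq2 1.42.0 was an alternative. CPM used library totals, and gene lengths came from the DU145 table. The members and lists were chosen with earlier results of these data known. Named genes were all members, up to 4 called genes per list and line with the smallest adjusted p (2 with the smallest p where none was called), and the 5 genes most like TUBB4B with a mean CPM of at least 20 in each line; other list genes were added freely. On simulated counts with 200 genes changed 2-fold, 88.5% were recovered in the C4-2 design (11746 genes), 96.5% in DU145 (15085) and 57.0% for the interaction (17565). The simulation gave every gene the same fixed spread and changed only genes above a floor of mean counts. Far fewer genes changed in it than were called in the data, so these rates do not give the power here, least of all at low counts. Alternatives were other scalings and filters, a replicate block, leaving out each library, and, added after seeing the data, leaving out both DU145 libraries numbered 3.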

Additional observations from a re-analysis of the deposited data

Results flagged for a closer look

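The interaction test of edgeR was used, with Benjamini-Hochberg adjustment over all 18139 genes. By it, the palbociclib response differed between lines for 53 of the 107 members and list genes tested (49.5%, against 33.4% of all genes). The 53 include 9 of the 10 members, which were chosen on this contrast, and the lists were chosen with earlier results known. Nothing is therefore read from that share. Of the 53, the 42 that the rule for named genes gives, members included, have their values here. Each value below is a difference of log2 fold changes, DU145 less C4-2. Groups of 2 or 3 libraries are too small for a test of outlying samples. For the members the difference was 1.73 for TUBB4B, 1.55 for TUBG1, 1.47 for TUBA4A, 1.38 for TUBB3, 1.34 for TUBA1C, 1.32 for TUBA1B, 0.76 for TUBB6, 0.69 for TUBB2A and 0.66 for TUBA1A, and these use the contrast by which they were chosen.

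Among partners of gamma-tubulin it was 0.84 for TUBGCP4, 0.57 for PCNT, 0.49 for CDK5RAP2, -0.85 for AKAP9 and -1.001 for TUBGCP5. For augmin it was 1.40 for HAUS2, 0.70 for HAUS8 and 0.59 for HAUS5. Folding genes gave 1.28 for PFDN1, 0.92 for PFDN2, 0.79 for VBP1, 0.63 for TBCC, 0.55 for TBCA, 0.45 for TBCB and -1.07 for TBCEL. The autoregulation genes CNOT1 and CNOT11 gave 0.32 and 0.31. The CNOT11 call was lost under several alternatives, among them RLE factors (0.26), library totals (0.20) and DESeq2 (0.26).

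Among modifying enzymes it was 0.91 for TTLL12, 0.79 for TTLL4, -0.30 for TTL, -0.82 for AGTPBP1, -0.88 for TTLL3 and -1.39 for TTLL7. It was 2.07 for STMN1, 0.88 for FIGN and 0.72 for KATNA1, which sequester or sever. Lattice and end-binding genes gave 1.16 for CKAP5, 1.13 for MAPRE1, 0.97 for MAP7, 0.91 for MAP7D1, -1.91 for MAP1B and -3.64 for MAP2. For TUBE1 it was -2.11.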

How the results depend on the processing

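The total number of genes called in each comparison stayed within 1.5 times its value under all alternatives run. The members called in each direction did so too, except that TUBB6 was called lower in DU145, making 1 member in place of 0, with the replicate block (-0.09) and without both DU145 libraries numbered 3 (-0.12); the cause was not tested. No member's called fold change reversed. Of the log2 fold changes per member and alternative, 379 stayed within the SD between libraries of a group from the value reported, and 25 moved further. Calls were lost or gained under some alternatives for TUBB2A, TUBB3 and TUBB6. With DESeq2, 4155 genes were called in C4-2, 1857 higher and 2298 lower, in place of 3011 and 3173. Leaving out each library gave 5035 to 5751 called genes for C4-2 (6184 with all), 8112 to 9054 for DU145 (8924) and 4743 to 6249 for the interaction (6064), and leaving out a C4-2 DMSO library assumes that the remaining 1 varies like the other group. Scaling by library totals moved the median interaction of all genes from -0.02 to -0.12 and the share of higher calls from 55% to 45.6% (in C4-2 from 48.7% to 54.8%), and TUBB4B went from 1.73 to 1.62. With RLE factors the DU145 calls were 4516 higher and 4414 lower, in place of 4431 and 4493. The lists' counts moved by over 1.5 times in 39 cases and stayed within that in 633.

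Whether the replicate numbers pair the libraries was not settled. Deviations of same-numbered libraries correlated at 0.01 and 0.03 in C4-2 and at 0.02, 0.04 and 0.13 in DU145. In C4-2 only DMSO replicates 1 and 2 remained, whose deviations are equal and opposite, so these correlations cannot decide it. With the number as a replicate block 5699 genes were called for C4-2, 9953 for DU145 and 6037 for the interaction. DU145 replicate 3 correlated best with its own number (0.13), and every other pair that held a replicate 3 was negative, from -0.09 to -0.05. Deviations within a treatment sum to 0 there too. The other pairs of a replicate 3 must therefore together offset its 0.13, and they say nothing separate about pairing. Replicate 1 of palbociclib in DU145 correlated best with replicate 2 of DMSO. At the depth of the C4-2 table TUBB3 and TUBB2B, at 9 to 35 counts per library, could not be resolved.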
